A study of Homo sapiens with 16 samples.

Results

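SR proteins and heterogeneous nuclear ribonucleoproteins (hnRNPs) are RNA-binding proteins that decide which exons of a transcript are joined. The 37 genes described here are the 12 genes SRSF1 to SRSF12, the SR-like TRA2A and TRA2B, 20 genes named HNRNP, the hnRNP-like RBMX, and the RNA-binding regulators ELAVL1 and PTBP1. They were listed by name. Of the 37, 34 held at least 1 called base in at least 1 library, among 13085 genes with a called base in the whole series. Values were taken as the called bases inside each gene's hg38 span on its own strand.

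The study mapped N6-methyladenosine (m6A) in a human glioma line by m6A-eCLIP, in which an m6A antibody is crosslinked to fragmented polyA RNA and the bound base is read from the sequencing. The groups were the temozolomide-resistant line U87-R treated with 50 µM STM2457 for 96 hours (2 libraries), U87-R with a DMSO control (3 libraries) and the parental U87 MG with a DMSO control (3 libraries). STM2457 inhibits METTL3, the enzyme that writes most m6A on messenger RNA. Both groups of U87-R were cultured with 50 µM temozolomide, an alkylating drug, and U87 MG was not, so the resistant state and the drug cannot be told apart. Each is 1 established line, and the labels do not tell whether a group's libraries are independent cultures. The p-values therefore reflect the spread among these libraries, which may be technical.

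In vertebrates, SR proteins bind exonic enhancers through RNA recognition motifs and recruit the splicing machinery through arginine- and serine-rich domains, while many hnRNPs bind silencers or tracts near splice sites. Several of these proteins have been tied to m6A: SRSF3 and SRSF10 to the nuclear m6A reader YTHDC1, and HNRNPC, RBMX and HNRNPA2B1 to RNA whose folding or binding m6A changes. Many of the genes also control their own level through exons that expose the transcript to nonsense-mediated decay. Antibodies against m6A also bind N6,2′-O-dimethyladenosine, a mark beside the cap that is written by PCIF1 and not by METTL3, and the called bases do not separate the marks.

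Across whole libraries, 105900 and 110875 bases were called in treated U87-R, 149477 to 192697 in U87-R and 150135 to 182556 in U87. Depth is unknown, because the lists hold no reads. A score is given without its formula, so a summed score is a relative measure that joins methylation with RNA abundance; the 8 input libraries that would separate them were not analysed here, and fewer RNA molecules cannot be told apart from fewer marks. Of 10 markers chosen for the glioma line, 8 had called bases in all 8 libraries (VIM, CD44 and EGFR among them) and THY1 had none. Of 8 markers of other cells, PTPRC, EPCAM, CDH5 and ALB had none, while CD68 and PECAM1 were called in every library. Summed levels of the 10 markers ran from 4925 to 11906 over the libraries, and those of the other 8 from 186 to 411.

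The windows in the next lines show the first bases of the 17 genes with a base called in all 8 libraries there. Each runs from 10 bases before a RefSeq start to 20 bases from it, on GRCh38.p14 (the coordinates of hg38), and capitals mark the bases called in all 8 libraries.
SRSF1 (chr17:58007227-58007256, minus strand): tgataaaggcgcCATTTTggaggggccgcg
SRSF3 (chr6:36594352-36594381, plus strand): aggcggtggtccgcCATTTcgtggacgccg
SRSF5 (chr14:69767132-69767161, plus strand): tgctaagtgcgtCAgttgtggagtggcgta
SRSF6 (chr20:43457886-43457915, plus strand): cgcgcgcgcCATtgtgtggctggactcggc
SRSF7 (chr2:38751342-38751371, minus strand): gctcttcctCgTAgtgccgccgggactctt
TRA2B (chr3:185937995-185938024, minus strand): cggtagagttAgagcccgtgcggaggcggt
HNRNPA2B1 (chr7:26200727-26200756, minus strand): ctctagcggCAGTagcagcagcgccgggtc
HNRNPA3 (chr2:177212784-177212813, plus strand): cgagtccggtctCaaaatggaggtaaaacc
HNRNPAB (chr5:178204523-178204552, plus strand): cggcattgtCAggcggcggcaccgcgcggg
HNRNPC (chr14:21269423-21269452, minus strand): cctcggcggcagaggagactcgggggccAT
HNRNPD (chr4:82373972-82374001, minus strand): ccgttcttccgtcggccATttTaggtggtc
HNRNPH2 (chrX:101408212-101408241, plus strand): tcacgtgatTactcgcttacgtgagcagaa
HNRNPH3 (chr10:68332054-68332083, plus strand): cccccaagcCAgTAgctgtgctgcgcagct
HNRNPLL (chr2:38602909-38602938, minus strand): ttgcgtccccatcctTAgattcgctcctcc
HNRNPM (chr19:8444965-8444994, plus strand): ccgttcgctCACACaaagccCAgacgcgga
HNRNPUL1 (chr19:41264362-41264391, plus strand): ggcggcggccATttTgagccgctgccgcca
PTBP1 (chr19:797442-797471, plus strand): ggttcctgcTAttccggcgcctccactccg

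Calls in these windows sat as single bases or in short runs. In 6 of the 17 (SRSF1, SRSF3, SRSF6, HNRNPC, HNRNPD and HNRNPUL1) a base called in all 8 libraries lay in the letters CATT on the gene's strand, and in the other 11 none did. The called letter was not always adenosine. RefSeq start windows of 300 bases (250 before and 50 from the start) were available for 33 of the genes and gave the letters. Only bases inside the gene's span and within 50 nt of a start were counted, so bases upstream of the span were left out. In these genes 157 such bases were called in any library, of which 65 were A (41.4%) and 55 were T (35.0%). In other genes, 47.6% of 30340 such bases were A and 21.0% were T. The word CCATTT, searched after the calls had been seen, was present on the gene's strand in the first 50 bases of 5 of 48 start windows of these genes (10.4%; SRSF1, SRSF3, HNRNPC, HNRNPD and HNRNPR), against 238 of 22183 protein-coding start windows (1.07%). On either strand it was in 14.6% and 2.24%. HNRNPR holds the word at its start without a base called in all 8 libraries there, so the letters and the calls do not always go together.

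After STM2457 a larger share of the score of these genes lay at their starts. The genes held 390.5 ± 34.6 called bases per library in treated U87-R (SD, n = 2), 459 ± 25.7 in U87-R and 461 ± 39.6 in U87 (n = 3 each). In treated U87-R, 44.6% ± 0.39 of their summed score lay within 50 nucleotides (nt) of the gene's annotated start, against 27.8% ± 2.87 in U87-R and 23.3% ± 2.09 in U87. For all other genes the shares were 22.6%, 8.08% and 6.93%. The share at starts did not overlap between treated and untreated U87-R in either set, and the exact two-sided permutation test over libraries gave 0.1, the smallest value 2 against 3 libraries allow.

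**Figure D1:**
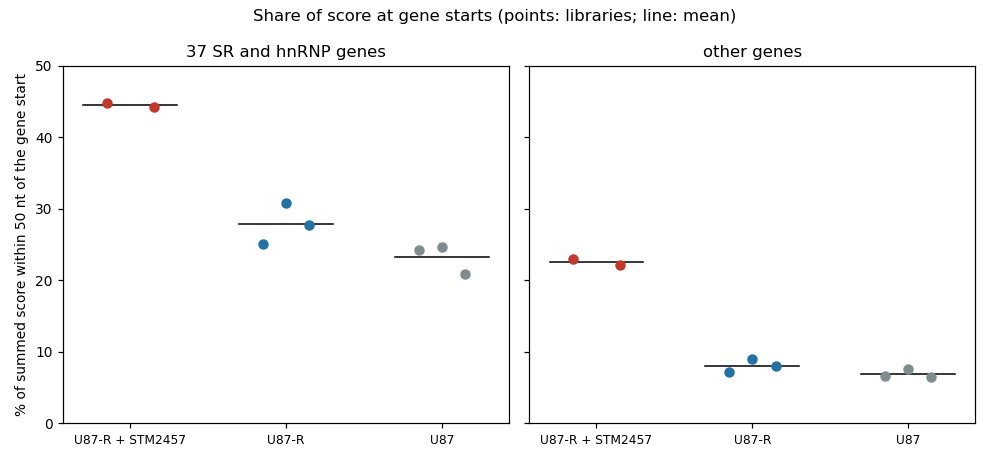
Percent of the summed score that lay within 50 nt of the annotated gene start, per library, for the 37 SR and hnRNP genes and for all other genes, in U87-R with STM2457, U87-R and U87 (points are libraries, lines are group means). Both treated libraries lie above every untreated library in each panel, with means of 44.6% against 27.8% in the SR and hnRNP genes and 22.6% against 8.08% in other genes.

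STM2457 lowered the summed score of 10 of the 34 genes tested and raised that of 3 relative to U87-R. Lower were SRSF4, SRSF5, SRSF8, RBMX, HNRNPA0, HNRNPA3, HNRNPDL, HNRNPF, HNRNPH2 and HNRNPR, and higher were TRA2A, TRA2B and HNRNPM. Tests were made with limma on log2(sum + 1), and a gene was called at an adjusted p under 0.05 over 10520 genes. Of all genes, 44.1% were called, 37.8% lower and 6.29% higher, with a median change of -0.68 on that log2 scale. The 13 of 34 called here are therefore near the background share, with a median change of -0.20 over the 34. When each library was centred on its median or scaled to the same total, the median of all genes moved to -0.12 and -0.01, and the split became 5 lower and 12 higher, and 5 lower and 14 higher. The count of 13 fell to 6 without treated replicate 1, 6 without treated replicate 2 and 7 without U87-R replicate 3. SRSF4, SRSF8, RBMX, HNRNPA0 and HNRNPF were the 5 lower genes under both scalings, and TRA2A, TRA2B and HNRNPM were higher under both.

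By the number of called bases, 10 of the 34 genes were called, 3 higher (HNRNPC, HNRNPM and TRA2A) and 7 lower (SRSF4, SRSF8, SRSF9, HNRNPA0, HNRNPDL, HNRNPH2 and RBMX). Of all genes, 39.4% were called by this measure, 2.76% higher and 36.7% lower. The count was 4 (0 higher and 4 lower) without treated replicate 1, 4 (1 higher and 3 lower) without treated replicate 2 and 6 (1 higher and 5 lower) without U87-R replicate 3, and centring left 3 higher and 1 lower.

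**Figure D2:**
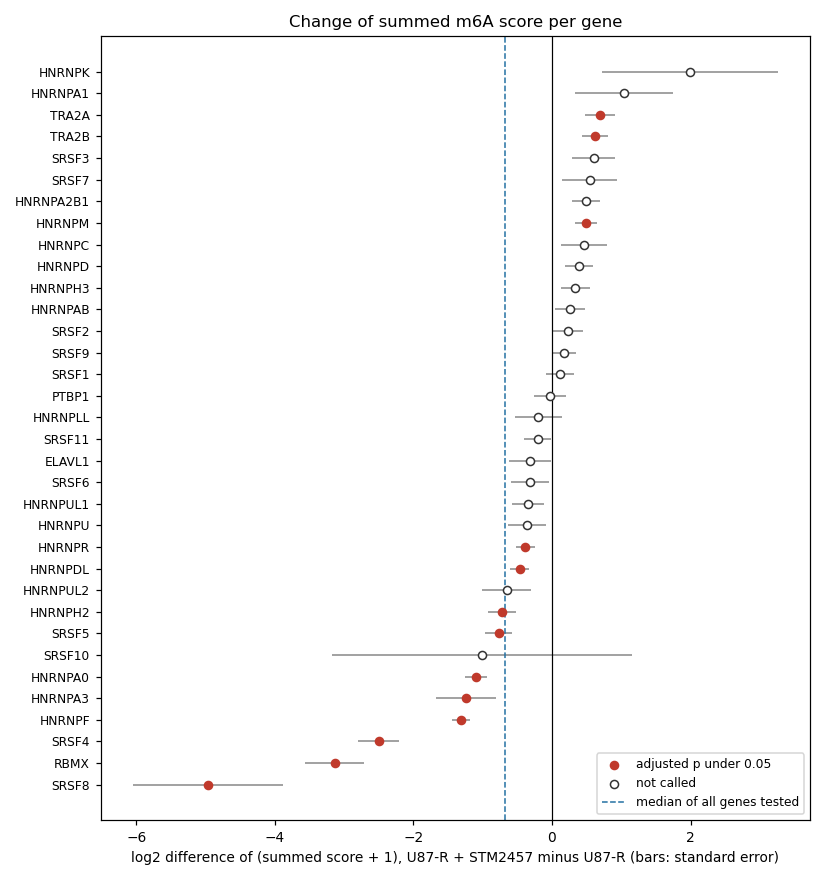
Change of the summed score of each of the 34 tested genes on the log2(sum + 1) scale, U87-R with STM2457 minus U87-R, with standard errors; filled points had an adjusted p under 0.05 and the dashed line is the median of all 10520 genes (-0.68). SRSF8, RBMX and SRSF4 lie farthest to the left, and 15 genes lie right of 0.

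Among the SR genes, SRSF4 and SRSF8 lost most of their score. SRSF4 (chr1:29147743-29181900, minus strand) encodes SRp75, one of the largest SR proteins. SRSF4 summed to 28.8 and 40.6 in the 2 treated U87-R libraries, 218, 150.3 and 238 in the 3 untreated U87-R libraries and 199.8, 231 and 203 in the 3 U87 libraries. Every treated library was below every untreated one. For SRSF4 the log2 change was -2.50 ± 0.30 (SE, adjusted p = 0.000317). In SRSF4 the base with the highest mean score was chr1:29148388, 33512 nt into the gene and 645 nt before its annotated end, with no call in treated U87-R, 48.8 ± 6.68 in U87-R and 56.6 ± 8.11 in U87 (mean ± SD). Its 44 called bases lay at a median of 612.5 nt from the annotated end, and almost no score was at its start. Of these bases, 2 also lie in the span of MECR. A base 52 nt into SRSF4 was called only after STM2457, with 9.05 and 4.36 in treated U87-R, against 0, 0 and 0 in U87-R.

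SRSF8 (chr11:95066877-95071225, plus strand) is a copy of the SRSF2 coding sequence that arose by retroposition, and how the authors placed reads that match both is not stated. SRSF8 summed to 0 and 22.3 in the 2 treated U87-R libraries, 188, 118 and 152 in the 3 untreated U87-R libraries and 104, 169 and 121 in the 3 U87 libraries. No base was called in 1 treated library, and the groups did not overlap. For SRSF8 the log2 change was -4.97 ± 1.08 (SE, adjusted p = 0.00587); without treated replicate 1, the library listed at 0, it was -2.70 (adjusted p = 0.00675), and without treated replicate 2 it was -7.24 (adjusted p = 0.0004). In SRSF8 the base with the highest mean score was chr11:95068060, 1183 nt into the gene and 3165 nt before its annotated end, with 9.74 ± 13.8 in treated U87-R, 74.7 ± 2.22 in U87-R and 65.3 ± 9.68 in U87 (mean ± SD).

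SRSF5 (chr14:69767142-69772005, plus strand), which encodes SRp40, moved less. SRSF5 summed to 388 and 482 in the 2 treated U87-R libraries, 871, 636 and 726 in the 3 untreated U87-R libraries and 625, 513 and 725 in the 3 U87 libraries. Both treated libraries were below every untreated one. For SRSF5 the log2 change was -0.77 ± 0.20 (SE, adjusted p = 0.0134). The call was lost without treated replicate 1 (adjusted p = 0.128), with bases up to 50 nt upstream of the start included (adjusted p = 0.0532) and under both scalings (-0.21 and -0.08). In SRSF5 the base with the highest mean score was chr14:69771462, 4320 nt into the gene and 543 nt before its annotated end, with 99 ± 2.51 in treated U87-R, 138 ± 4.37 in U87-R and 131 ± 9.62 in U87 (mean ± SD). Near the start, by contrast, its score was 97.7 and 101 in treated U87-R, against 87.5, 40.7 and 58.4 in U87-R.

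SRSF3 and SRSF7 encode the small SR proteins that also serve as adaptors of mRNA export. SRSF3 (chr6:36594362-36605600, plus strand) summed to 398 and 404 in the 2 treated U87-R libraries, 233, 272 and 289 in the 3 untreated U87-R libraries and 111, 244 and 193 in the 3 U87 libraries. SRSF7 (chr2:38743599-38751494, minus strand) summed to 253 and 253 in the 2 treated U87-R libraries, 160.3, 249 and 129.9 in the 3 untreated U87-R libraries and 76.9, 174 and 148 in the 3 U87 libraries. In both genes the treated libraries were above the 3 untreated U87-R libraries, yet the changes of 0.60 ± 0.31 (SE, adjusted p = 0.143) and 0.54 ± 0.39 (SE, adjusted p = 0.289) did not pass the test. In SRSF3 the base with the highest mean score was chr6:36594367, 5 nt into the gene and 11233 nt before its annotated end, with 111 ± 4.82 in treated U87-R, 82.2 ± 17.1 in U87-R and 50 ± 9.05 in U87 (mean ± SD). In SRSF7 the base with the highest mean score was chr2:38751360, 134 nt into the gene and 7761 nt before its annotated end, with 70.2 ± 9.84 in treated U87-R, 51.4 ± 13.1 in U87-R and 36 ± 12.4 in U87 (mean ± SD), at a second RefSeq start. Both bases are in the start windows shown above. Within 50 nt of a RefSeq start lay on average 98.5% of the score of SRSF3 in treated U87-R, 96.8% in U87-R and 93.1% in U87, and for SRSF7 84.7%, 97.0% and 96.9%.

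The other SR genes gave no call by summed score after STM2457. SRSF1, a splicing activator with growth-promoting activity in many tumours, summed to 461 and 569.5 in the 2 treated U87-R libraries, 416, 547 and 463 in the 3 untreated U87-R libraries and 461, 445 and 627 in the 3 U87 libraries. SRSF2, which marks nuclear speckles, summed to 449 and 518 in the 2 treated U87-R libraries, 394, 455 and 389.9 in the 3 untreated U87-R libraries and 309.8, 375 and 511 in the 3 U87 libraries. SRSF6 summed to 271 and 343 in the 2 treated U87-R libraries, 448, 357 and 342 in the 3 untreated U87-R libraries and 460.3, 250.5 and 408 in the 3 U87 libraries. The libraries of treated and untreated U87-R overlapped in these 3 genes. SRSF9 and SRSF11 had changes of 0.17 ± 0.17 (SE, adjusted p = 0.451) and -0.21 ± 0.20 (SE, adjusted p = 0.419). SRSF10, a splicing repressor when dephosphorylated, had at most 40.3 in any library and was listed at 0 in treated replicate 1 and U87 replicate 2, and SRSF12 had no called base.

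TRA2A and TRA2B, homologues of the fly sex-determination factor transformer 2, bind GA-rich exonic enhancers. Both rose after STM2457. TRA2A (chr7:23504780-23531981, minus strand) summed to 348 and 345 in the 2 treated U87-R libraries, 239, 202 and 202 in the 3 untreated U87-R libraries and 105, 146 and 109 in the 3 U87 libraries. The 3 groups did not overlap, and treated U87-R was highest. For TRA2A the log2 change was 0.70 ± 0.22 (SE, adjusted p = 0.0311). In TRA2A the base with the highest mean score was chr7:23531981, the first base of the gene and 27201 nt before its annotated end, with 109.5 ± 13.9 in treated U87-R, 86.4 ± 15 in U87-R and 59.9 ± 11 in U87 (mean ± SD). The call held without U87-R replicate 1 (adjusted p = 0.0368) and was lost without U87-R replicate 2 (0.053), U87-R replicate 3 (0.0898), treated replicate 1 (0.109) or treated replicate 2 (0.0981), and with bases just upstream of the start (adjusted p = 0.0848).

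TRA2B (chr3:185914558-185938014, minus strand) summed to 492 and 541 in the 2 treated U87-R libraries, 299, 370.0 and 343 in the 3 untreated U87-R libraries and 305, 409.6 and 303 in the 3 U87 libraries. Treated libraries were above all others, and U87-R overlapped with U87. For TRA2B the log2 change was 0.62 ± 0.19 (SE, adjusted p = 0.0264). In TRA2B the base with the highest mean score was chr3:185937987, 27 nt into the gene and 23429 nt before its annotated end, with 131 ± 1.09 in treated U87-R, 105 ± 17.5 in U87-R and 102 ± 3.72 in U87 (mean ± SD). The call held without U87-R replicate 2 (adjusted p = 0.0229) and was lost without U87-R replicate 1 (0.0679), U87-R replicate 3 (0.062), treated replicate 1 (0.0785) or treated replicate 2 (0.132). On average 99.3% of its score was within 50 nt of the start in treated U87-R, 99.9% in U87-R and 99.1% in U87. Of the 6 bases of TRA2B called in all 8 libraries around the start, 1 is in the printed window and the others lie just past it.

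**Figure D3:**
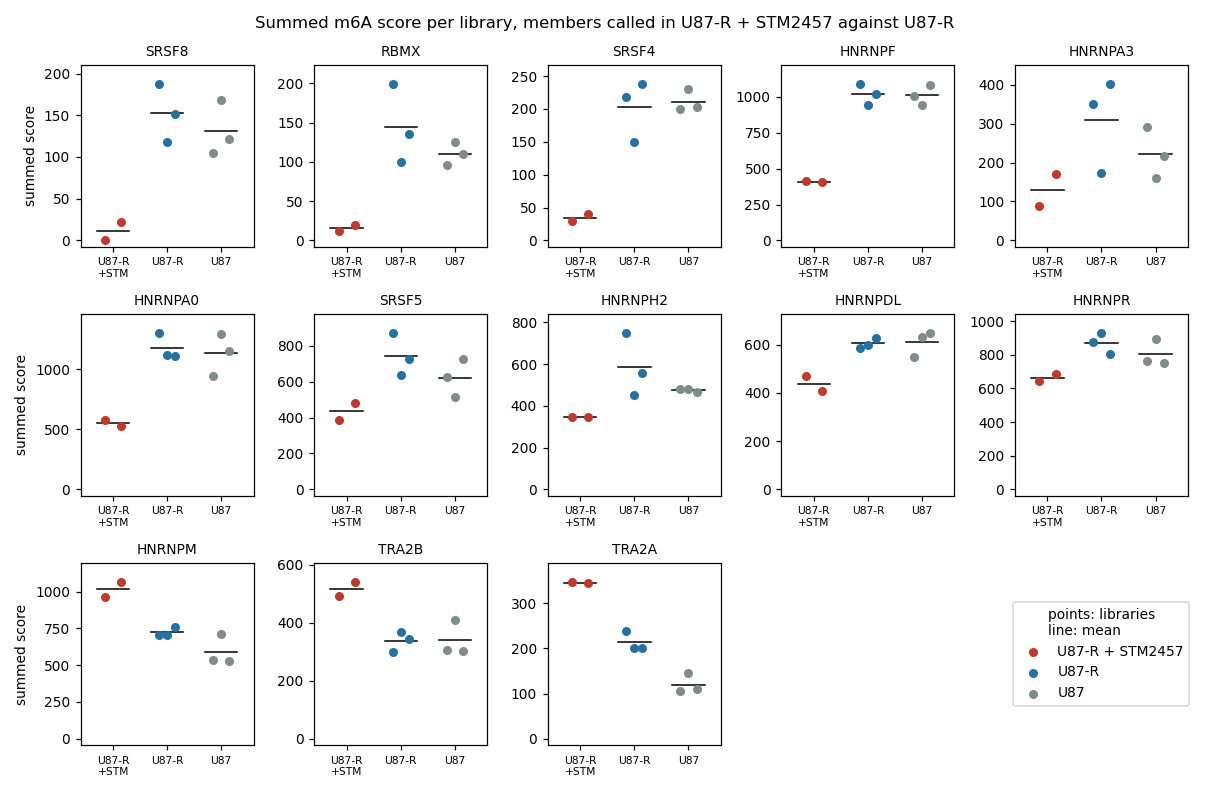
Summed score per library of the 13 genes called between U87-R with STM2457 and U87-R (points are libraries, lines group means, axes linear and separate per gene). The 10 lower genes come first and the 3 higher ones last, and in each panel the treated points do not overlap with the U87-R points.

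In the hnRNP A and B family, whose members package nascent RNA and often repress exons, HNRNPA0 fell. HNRNPA0 (chr5:137745651-137754363, minus strand) binds AU-rich elements and is a target of stress kinases. HNRNPA0 summed to 577 and 526 in the 2 treated U87-R libraries, 1304, 1120.3 and 1109.6 in the 3 untreated U87-R libraries and 948, 1296 and 1154 in the 3 U87 libraries. Treated libraries stood below every other library. For HNRNPA0 the log2 change was -1.09 ± 0.16 (SE, adjusted p = 0.000794), and it was called in all 5 fits without 1 library. In HNRNPA0 the base with the highest mean score was chr5:137753963, 400 nt into the gene and 8312 nt before its annotated end, with 83.7 ± 1.25 in treated U87-R, 115 ± 14 in U87-R and 117 ± 0.653 in U87 (mean ± SD). That base was among those that lasted, while 2 neighbours were lost entirely, as given with the single bases.

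HNRNPA3 (chr2:177212794-177223959, plus strand) summed to 88.1 and 171 in the 2 treated U87-R libraries, 351, 174 and 403 in the 3 untreated U87-R libraries and 290.5, 161 and 217 in the 3 U87 libraries. The groups of U87-R did not overlap, by a narrow gap between 171 in treated replicate 2 and 174 in U87-R replicate 2. For HNRNPA3 the log2 change was -1.23 ± 0.43 (SE, adjusted p = 0.0458). In HNRNPA3 the base with the highest mean score was chr2:177221648, 8854 nt into the gene and 2311 nt before its annotated end, with 16.6 ± 19.4 in treated U87-R, 69.8 ± 17.6 in U87-R and 55.3 ± 20.3 in U87 (mean ± SD). Bases 1 to 50 nt upstream of the annotated start, outside the span, summed to 367 and 319 in the 2 treated U87-R libraries, 204, 223 and 224 in the 3 untreated U87-R libraries and 97.7, 193 and 140.0 in the 3 U87 libraries. With them included the change was -0.13 (adjusted p = 0.63), so the call rests on where the gene is taken to begin. It was also lost without treated replicate 1 (0.35), treated replicate 2 (0.0616), U87-R replicate 1 (0.118) or U87-R replicate 3 (0.135), and was not called under either scaling.

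HNRNPA2B1 (chr7:26189927-26200746, minus strand), a nuclear protein described as binding m6A-marked transcripts, summed to 613 and 682 in the 2 treated U87-R libraries, 435, 514 and 435 in the 3 untreated U87-R libraries and 485, 478 and 331 in the 3 U87 libraries. Treated libraries were the highest, but the change of 0.49 ± 0.20 (SE, adjusted p = 0.0717) did not pass. In HNRNPA2B1 the base with the highest mean score was chr7:26200746, the first base of the gene and 10819 nt before its annotated end, with 117 ± 1.63 in treated U87-R, 99.6 ± 11.7 in U87-R and 89.9 ± 1.28 in U87 (mean ± SD). One of its start bases, 3 nt into the gene, was lost after STM2457, with 0 and 0 in treated U87-R, against 12.4, 49.8 and 39.5 in U87-R. An internal base 7411 nt into the gene had 23 and 21.5 in treated U87-R, against 0, 0 and 0 in U87-R. HNRNPA1, the best-studied exon repressor of the family, summed to 53.2 and 114 in the 2 treated U87-R libraries, 37.4, 27.4 and 50.5 in the 3 untreated U87-R libraries and 33.3, 36.2 and 9.84 in the 3 U87 libraries, and its many processed copies in the genome make its values uncertain. HNRNPAB had a change of 0.26 ± 0.22 (SE, adjusted p = 0.366).

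HNRNPD (AUF1) and HNRNPDL bind AU-rich elements and regulate mRNA decay. HNRNPDL (chr4:82422564-82430462, minus strand) summed to 469.8 and 407 in the 2 treated U87-R libraries, 587, 600.1 and 629 in the 3 untreated U87-R libraries and 547, 630.2 and 649 in the 3 U87 libraries. Treated libraries were below all others. For HNRNPDL the log2 change was -0.47 ± 0.14 (SE, adjusted p = 0.0256), turning to 0.090 and 0.22 when libraries were centred or scaled to the same total. In HNRNPDL the base with the highest mean score was chr4:82429999, 463 nt into the gene and 7435 nt before its annotated end, with 67.7 ± 14.9 in treated U87-R, 67.6 ± 2.69 in U87-R and 77.5 ± 12.7 in U87 (mean ± SD). The call was lost without treated replicate 2 (adjusted p = 0.115) or U87-R replicate 3 (0.0812). HNRNPD had a change of 0.39 ± 0.20 (SE, adjusted p = 0.152), and on average 52.0% of its score lay near its start in treated U87-R, 57.2% in U87-R and 56.0% in U87.

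HNRNPC, which binds uridine tracts and is the best-known example of a protein whose access to RNA is opened by m6A, gave no call in its sum. HNRNPC (chr14:21209147-21269442, minus strand) summed to 300.1 and 436 in the 2 treated U87-R libraries, 256, 315 and 222 in the 3 untreated U87-R libraries and 162, 243 and 112 in the 3 U87 libraries. Treated replicate 1 lay inside the U87-R range. For HNRNPC the log2 change was 0.47 ± 0.33 (SE, adjusted p = 0.283). In HNRNPC the base with the highest mean score was chr14:21269423, 19 nt into the gene and 60276 nt before its annotated end, with 78.3 ± 1.97 in treated U87-R, 57.9 ± 8.63 in U87-R and 33.1 ± 14 in U87 (mean ± SD). The number of called bases rose all the same, with 12 and 12 in treated U87-R, against 8, 6 and 5 in U87-R and a log2 change of 0.85 ± 0.25 (SE, adjusted p = 0.0295). That call held without U87-R replicate 1 and was lost without treated replicate 1 (adjusted p = 0.113), treated replicate 2 (0.105), U87-R replicate 2 (0.0516) or U87-R replicate 3 (0.0758).

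HNRNPF, HNRNPH1, HNRNPH2 and HNRNPH3 bind runs of guanines. HNRNPF (chr10:43385618-43409186, minus strand) summed to 411 and 407 in the 2 treated U87-R libraries, 1092, 946 and 1020.5 in the 3 untreated U87-R libraries and 1005, 941 and 1084 in the 3 U87 libraries. Treated libraries were far below the other 6. For HNRNPF the log2 change was -1.31 ± 0.13 (SE, adjusted p = 0.000136), the lowest adjusted p of the 34 genes, and it was called in all 5 fits without 1 library. In HNRNPF the base with the highest mean score was chr10:43387678, 21508 nt into the gene and 2060 nt before its annotated end, with 91.2 ± 0.573 in treated U87-R, 163 ± 7.28 in U87-R and 162 ± 13.9 in U87 (mean ± SD). The 39 called bases of HNRNPF lay at a median of 1624 nt from its annotated end.

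HNRNPH2 (chrX:101408222-101414133, plus strand) summed to 349 and 346 in the 2 treated U87-R libraries, 750.3, 451 and 559 in the 3 untreated U87-R libraries and 479, 483 and 468 in the 3 U87 libraries. Treated libraries were below all others, and U87-R replicate 1 was the highest. For HNRNPH2 the log2 change was -0.72 ± 0.20 (SE, adjusted p = 0.0194). In HNRNPH2 the base with the highest mean score was chrX:101412406, 4184 nt into the gene and 1727 nt before its annotated end, with 88.2 ± 6.66 in treated U87-R, 83.4 ± 6.85 in U87-R and 78.7 ± 5.12 in U87 (mean ± SD), a base that kept its score while the sum fell. All 37 called bases also lie in the span of the readthrough gene RPL36A-HNRNPH2. The call was lost without treated replicate 1 (adjusted p = 0.103) or treated replicate 2 (0.102) and under both scalings (-0.16 and -0.03). HNRNPH3 had a change of 0.33 ± 0.21 (SE, adjusted p = 0.22), and HNRNPH1 had no called base in any library.

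**Figure D4:**
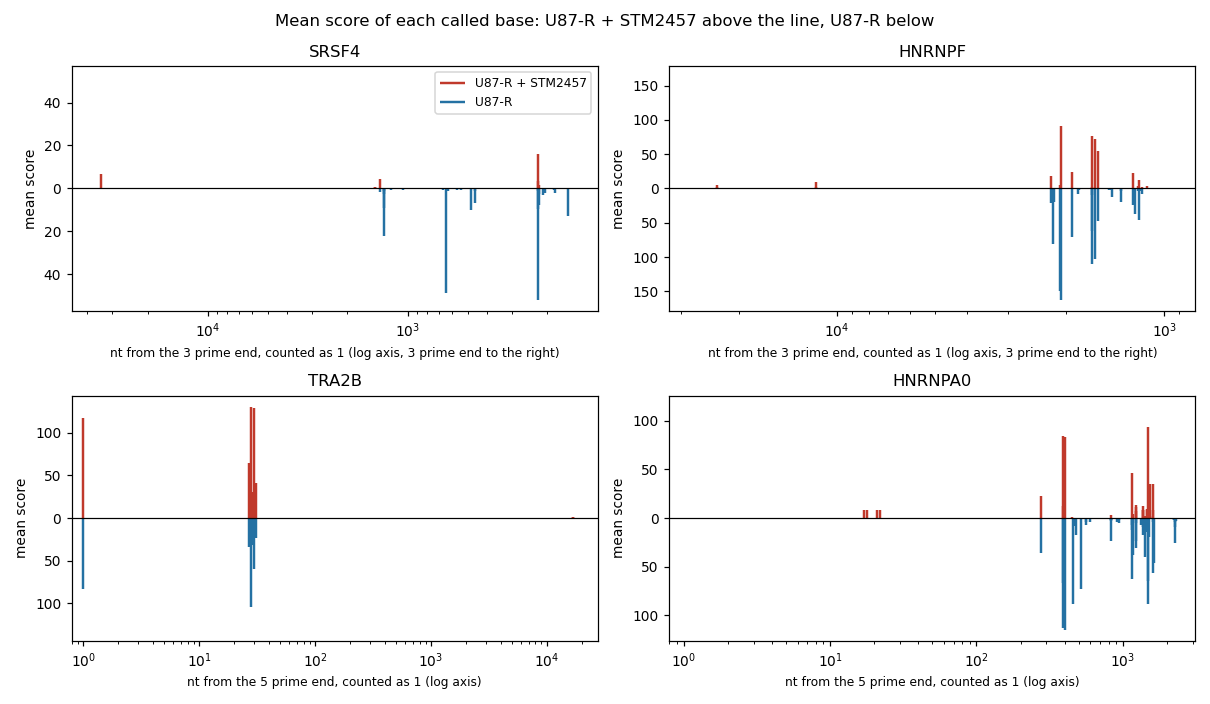
Mean score of each called base along SRSF4, HNRNPF, TRA2B and HNRNPA0, for U87-R with STM2457 above the line and U87-R below it; distance in nt from the 3 prime end (SRSF4, HNRNPF) or the 5 prime end (TRA2B, HNRNPA0) on log axes. In SRSF4, HNRNPF and HNRNPA0 several tall bars below the line have no partner above it, while in TRA2B every bar near the start has one.

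HNRNPM, which binds GU-rich RNA and acts on splicing in tumour cells, rose. HNRNPM (chr19:8444975-8489114, plus strand) summed to 965 and 1066 in the 2 treated U87-R libraries, 704, 704 and 759 in the 3 untreated U87-R libraries and 535, 709 and 526 in the 3 U87 libraries. Treated libraries were above all others. For HNRNPM the log2 change was 0.49 ± 0.16 (SE, adjusted p = 0.034), and the adjusted p was 0.0562 to 0.171 when any 1 of the 5 treated or untreated U87-R libraries was left out. In HNRNPM the base with the highest mean score was chr19:8444976, 1 nt into the gene and 44138 nt before its annotated end, with 155 ± 3.05 in treated U87-R, 114 ± 9.92 in U87-R and 103 ± 2.24 in U87 (mean ± SD). Of its 12 called single bases, 4 start bases and 5 internal ones were higher and 3 internal ones were lower.

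HNRNPR and HNRNPU are large RNA-binding proteins, and HNRNPU also binds chromatin. HNRNPR (chr1:23304688-23344284, minus strand) summed to 643 and 687 in the 2 treated U87-R libraries, 878, 930.3 and 802 in the 3 untreated U87-R libraries and 761, 895 and 751 in the 3 U87 libraries. Treated libraries were below all others. For HNRNPR the log2 change was -0.39 ± 0.14 (SE, adjusted p = 0.0463), turning to 0.17 and 0.30 under the scalings, with an adjusted p of 0.0618 to 0.175 when any 1 of the 5 treated or untreated U87-R libraries was left out. In HNRNPR the base with the highest mean score was chr1:23310728, 33556 nt into the gene and 6040 nt before its annotated end, with 70.3 ± 1.44 in treated U87-R, 106 ± 12.4 in U87-R and 111 ± 3.6 in U87 (mean ± SD). HNRNPU (chr1:244850297-244864543, minus strand) summed to 288 and 258 in the 2 treated U87-R libraries, 345, 278 and 446 in the 3 untreated U87-R libraries and 243, 420.5 and 354 in the 3 U87 libraries, with overlapping groups and a change of -0.36 ± 0.27 (SE, adjusted p = 0.312). In HNRNPU the base with the highest mean score was chr1:244854432, 10111 nt into the gene and 4135 nt before its annotated end, with 33.3 ± 1.03 in treated U87-R, 52.4 ± 10.7 in U87-R and 59 ± 8.39 in U87 (mean ± SD). The related HNRNPUL1 and HNRNPUL2 had changes of -0.35 ± 0.23 (SE, adjusted p = 0.253) and -0.65 ± 0.35 (SE, adjusted p = 0.164).

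RBMX, the X-linked hnRNP G, is described as binding m6A-marked RNA during transcription. RBMX (chrX:136869192-136880725, minus strand) summed to 11.7 and 19.2 in the 2 treated U87-R libraries, 199.7, 99.7 and 136 in the 3 untreated U87-R libraries and 96.2, 125 and 111 in the 3 U87 libraries. Treated libraries were far below the other 6. For RBMX the log2 change was -3.13 ± 0.42 (SE, adjusted p = 0.000555), and it was called in all 5 fits without 1 library. In RBMX the base with the highest mean score was chrX:136874063, 6662 nt into the gene and 4871 nt before its annotated end, with 15.1 ± 4.79 in treated U87-R, 43.2 ± 11.7 in U87-R and 39.5 ± 4.29 in U87 (mean ± SD). All its called bases lay more than 50 nt from every RefSeq start.

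HNRNPK binds C-rich RNA and acts in transcription as well as splicing. HNRNPK (chr9:83968083-83980615, minus strand) summed to 103 and 80.3 in the 2 treated U87-R libraries, 4.68, 32.9 and 63.4 in the 3 untreated U87-R libraries and 0, 9.29 and 0.684 in the 3 U87 libraries. Treated libraries were above all others, but the U87-R libraries spread widely, and the change of 1.99 ± 1.27 (SE, adjusted p = 0.23) did not pass. In HNRNPK the base with the highest mean score was chr9:83980572, 43 nt into the gene and 12489 nt before its annotated end, with 29.5 ± 4.8 in treated U87-R, 11.9 ± 10.3 in U87-R and no call in U87 (mean ± SD). HNRNPL, which binds CA repeats, had no called base, and its paralogue HNRNPLL had a change of -0.20 ± 0.34 (SE, adjusted p = 0.668).

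PTBP1 binds pyrimidine tracts and represses neuronal exons in glia and progenitors. PTBP1 (chr19:797452-812312, plus strand) summed to 175 and 241 in the 2 treated U87-R libraries, 195, 185 and 255 in the 3 untreated U87-R libraries and 168, 193 and 176 in the 3 U87 libraries. The groups overlapped, with a change of -0.03 ± 0.24 (SE, adjusted p = 0.93) that became 0.66 (adjusted p = 0.0461) when libraries were scaled to the same total. In PTBP1 the base with the highest mean score was chr19:811030, 13578 nt into the gene and 1282 nt before its annotated end, with 15.5 ± 4.84 in treated U87-R, 60.6 ± 9.28 in U87-R and 59.7 ± 13.2 in U87 (mean ± SD). ELAVL1 (HuR) stabilises mRNAs with AU-rich elements. ELAVL1 (chr19:7958573-8005641, minus strand) summed to 125 and 90.9 in the 2 treated U87-R libraries, 169.7, 107 and 128 in the 3 untreated U87-R libraries and 149.5, 169 and 124 in the 3 U87 libraries, with overlapping groups and a change of -0.31 ± 0.30 (SE, adjusted p = 0.43). In ELAVL1 the base with the highest mean score was chr19:7963607, 42034 nt into the gene and 5034 nt before its annotated end, with no call in treated U87-R, 47.4 ± 7.77 in U87-R and 43.1 ± 5.61 in U87 (mean ± SD). The top base of ELAVL1 was thus called in all 6 untreated libraries and in neither treated one, although the sum gave no call.

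SRSF12, HNRNPH1 and HNRNPL had no called base on their strand in any library, nor a peak in the authors' lists. Within the lists, the nearest called base on either strand lay 64.2 kb above and 420.6 kb below HNRNPH1, 157.3 kb above and 299.2 kb below HNRNPL, and 28018 nt above and 11363 nt below SRSF12. Stretches that wide without a call around HNRNPH1 and HNRNPL leave their methylation unmeasured here, and the reason was not tested.

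Split by position, the response to STM2457 differed within single genes. Beyond 50 nt of the gene start, 17 of the 34 genes were called, 13 lower and 4 higher, where 50.8% of all genes were called (45.6% lower, 5.19% higher). The median change there was -0.41 for the 34 genes and -1.06 for all genes. Besides genes already named, SRSF6 (-2.48 ± 0.38, adjusted p = 0.00218), SRSF9 (-3.08 ± 0.43, adjusted p = 0.00143), SRSF11 (-0.54 ± 0.17, adjusted p = 0.034) and HNRNPLL (-2.31 ± 0.61, adjusted p = 0.0184) were lower. Higher were HNRNPC (5.01 ± 0.90, adjusted p = 0.00416), TRA2A (4.70 ± 0.78, adjusted p = 0.00305) and HNRNPK (3.43 ± 1.17, adjusted p = 0.0468), along with HNRNPA1. In these higher genes the sums there were 0 or at most 5.45 in every U87-R library. The sizes of their changes therefore depend on the 1 added before the logarithm, and no other value was tried for this readout. The call of HNRNPK was lost without any 1 of the 5 libraries of U87-R (adjusted p 0.0615 to 0.174), that of SRSF11 without either treated library or U87-R replicate 1 or 2 (0.051 to 0.151), and that of HNRNPLL without either treated library (0.0634 and 0.0756). The call of HNRNPH2 was also lost without treated replicate 1 (change -0.95) or treated replicate 2 (-0.87), and that of SRSF5 without treated replicate 1 (-0.83). Centred on the libraries' medians, the split was 5 lower and 13 higher, and scaled to the same total it was 8 lower and 9 higher. With centring, SRSF11 turned to 0.56 (limma, adjusted p = 0.0409) and HNRNPDL to 0.59 (adjusted p = 0.036), both called higher. Scaled to the same total they had changes of 0.15 and 0.19, which were not called. SRSF5, HNRNPH2 and HNRNPR were not called under either scaling, and HNRNPA0, HNRNPF and HNRNPLL were not called when centred.

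Within 50 nt of any RefSeq start, 25 of the genes could be tested, and SRSF9 (0.83 ± 0.14, adjusted p = 0.00747) and TRA2B (0.61 ± 0.17, adjusted p = 0.0431) were called, both higher. Of 5183 genes, 23.3% were called there, 22.5% higher and 0.868% lower. The median change was 0.54 over the 25 genes and 1.06 over all. HNRNPDL was 1 of the 25 only through its treated libraries. Apart from HNRNPU, the 25 had changes above 0, though centring turned the median to -0.49 and left 1 call, lower, while scaling to the same total gave 15 calls, all higher. The call of TRA2B was lost without U87-R replicate 1 (limma, adjusted p = 0.096), U87-R replicate 2 (0.0527) or U87-R replicate 3 (0.0887). It was also lost without treated replicate 1 (change 0.69) or treated replicate 2 (0.53), each of which leaves 1 treated library. That of SRSF9 was lost without treated replicate 1 (change 0.72). Without U87-R replicate 2 just 1 gene was called, and without U87-R replicate 1 or 3 another gene was called in place of TRA2B.

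The score away from starts set against that near starts within the same library, a ratio taken inside each library, could be fitted in 24 genes. Of these, 6 (SRSF7, TRA2A, HNRNPA1, HNRNPC, HNRNPDL and HNRNPK) reached a sum of 10 in both parts only with the treated libraries counted, so their ratios are given with no test. Of the other 18, 6 were called lower and 0 higher. All 24 gave 6 lower and 3 higher, so the split depends on which genes were left out. Of the 6 called lower, SRSF9 and HNRNPLL did not reach 10 in both parts in the 2 treated libraries. Of 4462 genes, from which none was left out in this way, 57.3% were called, 55% lower and 2.31% higher, with a median change of -2.70. Lower were SRSF9 (-3.91 ± 0.52, adjusted p = 0.00142), HNRNPLL (-2.84 ± 0.68, adjusted p = 0.0125), SRSF6 (-2.75 ± 0.45, adjusted p = 0.00307), SRSF5 (-1.76 ± 0.44, adjusted p = 0.0148), HNRNPH3 (-1.29 ± 0.42, adjusted p = 0.0368) and HNRNPUL1 (-1.20 ± 0.39, adjusted p = 0.0355). SRSF9 showed both sides: near its start it summed to 259 and 222 in treated U87-R, against 129, 131 and 143 in U87-R, and away from it to 5.81 and 15.4 in treated U87-R, against 84.1, 92.3 and 88.8 in U87-R. SRSF6 had 248 and 317 in treated U87-R, against 236, 260.1 and 205 in U87-R near its start, and 23.3 and 25.4 in treated U87-R, against 212, 96.5 and 136 in U87-R away from it. The whole sum of neither gene was called. Of the 6, SRSF6 and SRSF9 were also called in all 5 fits without 1 library. The call of HNRNPH3 was lost without treated replicate 1 (adjusted p = 0.15), treated replicate 2 (0.0653), U87-R replicate 1 (0.0905) or U87-R replicate 3 (0.0585). That of HNRNPUL1 was lost without treated replicate 1 (0.0976), treated replicate 2 (0.118), U87-R replicate 1 (0.0682) or U87-R replicate 2 (0.0633). That of SRSF5 was lost without treated replicate 1 (0.0833), and that of HNRNPLL without treated replicate 1 (0.0597) or treated replicate 2 (0.0569).

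HNRNPC, TRA2A and HNRNPA1 held internal score mainly in the treated libraries. HNRNPC away from starts had 40.5 and 86.2 in treated U87-R, against 5.45, 0 and 0 in U87-R. TRA2A away from starts had 36.4 and 57.5 in treated U87-R, against 4.88, 0 and 0 in U87-R. HNRNPA1 away from starts had 10.5 and 41.4 in treated U87-R, against 0, 0 and 0 in U87-R. In each of the 3 genes the treated libraries were above all U87-R libraries, of which at most 1 had any score there. The internal bases called in treated U87-R included some 2687 to 2690 nt from the annotated end of HNRNPC. For TRA2A they included bases 1487 and 2664 to 2665 nt from the end, and for HNRNPA1 a base 1199 nt from it. These positions are not the full set.

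**Figure D5:**
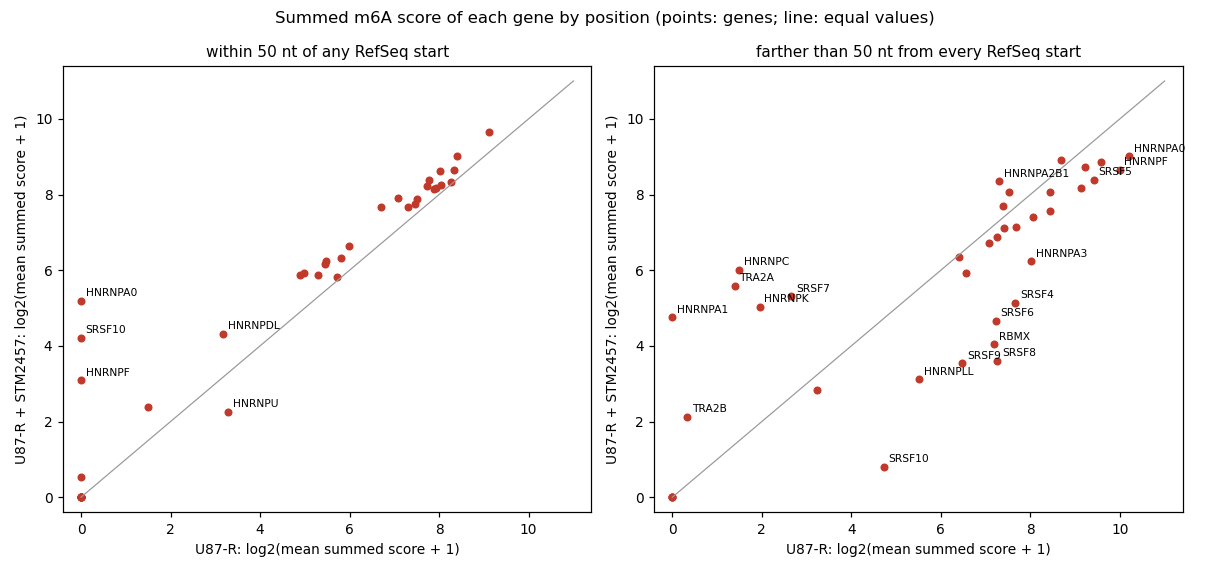
Mean summed score of each gene on a log2(mean + 1) scale, U87-R with STM2457 (vertical) against U87-R (horizontal), within 50 nt of any RefSeq start (left) and farther away (right); points are the 37 genes and the line marks equal values. In the left panel HNRNPU lies below the line while HNRNPA0, HNRNPF, SRSF10 and, at under 1, SRSF4 have score in treated U87-R alone. In the right panel SRSF4, SRSF6, SRSF8, SRSF9, SRSF10, RBMX and HNRNPLL are among the genes below the line. HNRNPA1, HNRNPC, HNRNPK, TRA2A and SRSF7 are among those above it.

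Single bases showed the same division. Of 264 bases of these genes called in all 3 U87-R libraries, 157 (59.5%) were also called in both treated libraries and 69 (26.1%) in neither. Near the gene start 65 of 69 were kept (94.2%), and beyond 50 nt 92 of 195 (47.2%). In other genes 88.5% near the start and 39.7% beyond it were kept. By the fit over 188742 single bases, 150 of 538 bases of these genes were called, 58 higher and 92 lower, where 23.5% of all bases were called (6.65% higher, 16.9% lower). Within 50 nt of a RefSeq start, 17 of 117 were higher and 1 was lower, and farther away 41 of 421 were higher and 91 lower. The calls over all bases were not split by position, so this split has no background beside it. A base was tested if it was called in at least 2 libraries of at least 1 group. Of the 58 higher bases, 40 met this only through the treated libraries and so had to differ, and these counts are given as a description. Of the 92 lower bases, 89 met it through U87, which takes no part in the comparison, and 3 only through U87-R.

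The 5 largest losses were bases with high scores in all 6 untreated libraries and no call in either treated library. HNRNPA0 lost a base 456 nt into the gene (chr5:137753907), with 0 and 0 in treated U87-R, against 90.7, 76.2 and 98.8 in U87-R (adjusted p = 2.43e-05). HNRNPA0 also lost the base 514 nt in (chr5:137753849), with 0 and 0 in treated U87-R, against 59.9, 91.8 and 66.6 in U87-R (adjusted p = 1.84e-05). HNRNPF lost a base 2181 nt before its end (chr10:43387799), with 0 and 0 in treated U87-R, against 76.4, 83.8 and 82.6 in U87-R (adjusted p = 8.03e-06). That base lies 121 nt from the top base of HNRNPF, which was still called at a lower mean score, 91.2 in treated U87-R against 163 in U87-R. HNRNPR lost a base (chr1:23310745) with 0 and 0 in treated U87-R, against 78.1, 78.4 and 83.5 in U87-R (adjusted p = 9.28e-06). The top base of HNRNPR, 17 nt away, was still called at a lower mean score, 70.3 in treated U87-R against 106 in U87-R. HNRNPA3 lost a base 2256 nt before its end (chr2:177221703), with 0 and 0 in treated U87-R, against 83.7, 38.1 and 85.9 in U87-R (adjusted p = 7.96e-05). Lost and kept bases of HNRNPA0, HNRNPF and HNRNPR thus lay close together.

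The 5 largest increases were lower in score, and 4 of them were tested only through the treated libraries, so they are given with no test. HNRNPUL2 had a base 263 nt into the gene (chr11:62727194) with 46.8 and 40 in treated U87-R, against 0, 0 and 0 in U87-R. In U87 this base had 0, 11.7 and 0. Of the called bases of HNRNPUL2, 37 also lie in the span of the readthrough gene HNRNPUL2-BSCL2. ELAVL1 had a base 38038 nt in (chr19:7967603) with 44.5 and 39 in treated U87-R, against 0, 0 and 0 in U87-R. HNRNPR had a base 20702 nt in (chr1:23323582) with 11.2 and 43.4 in treated U87-R, against 0, 0 and 0 in U87-R. HNRNPM had a base 28680 nt in (chr19:8473655) with 19.3 and 32.9 in treated U87-R, against 0, 0 and 0 in U87-R. The other one, of HNRNPR 20575 nt in (chr1:23323709), was also called in U87 replicates 1 and 2, with 35 and 31.2 in treated U87-R, against 0, 0 and 0 in U87-R (adjusted p = 0.0278). Of the 58 higher bases, 36 were not called in any U87-R library and 31 in no untreated library at all. Of the 92 lower bases, 51 were called in neither treated library.

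U87-R and U87 gave no called difference by limma in any of the 34 genes. The lowest adjusted p was 0.105, for TRA2A, and 2 genes had an unadjusted p under 0.05. Over all genes, 133 of 10520 (1.26%) were called, 94 higher (0.894%) and 39 lower (0.371%) in U87-R, and 68 with the replicate number as a block. The median change was 0.17 over the 34 genes and 0.12 over all genes. TRA2A and HNRNPLL were higher in all 3 U87-R libraries than in all 3 U87 libraries, with changes of 0.84 ± 0.20 (SE, adjusted p = 0.105) and 0.59 ± 0.31 (SE, adjusted p = 0.489), and SRSF9 was lower, with -0.27 ± 0.16 (SE, adjusted p = 0.536). HNRNPK had the largest change, 3.16 ± 1.13 (SE, adjusted p = 0.303), on sums that were 0 or under 10 in all U87 libraries. SRSF4 (-0.09 ± 0.26, adjusted p = 0.95), TRA2B (0.00 ± 0.17, adjusted p = 1) and HNRNPF (0.01 ± 0.11, adjusted p = 0.987) had changes under 0.1 on the log2 scale.

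The other readouts gave no call between U87-R and U87 either. None of the genes here was called in any of them. Of all genes, 0.675% were called by the number of bases (0.494% higher, 0.181% lower), 1.08% by the score beyond 50 nt of the start (0.694% higher, 0.39% lower), 1% by the score near starts (0.752% higher, 0.251% lower) and 0.74% by the ratio of away to near (0.202% higher, 0.538% lower). Without U87 replicate 2, 2 of these genes were called near starts, both higher. Unadjusted, 1 gene had a p under 0.05 for the number of bases, 1 for the score beyond 50 nt, 4 for the score near starts and 1 for the ratio. No single base of these genes passed in this comparison by limma (63 of 538 had an unadjusted p under 0.05), where 1 of 188742 bases did, higher in U87-R (0.00053%). The share of these genes' score at gene starts did not overlap between U87-R and U87, with an exact two-sided permutation p of 0.1, the smallest possible. In all other genes the libraries of U87-R and U87 overlapped (exact two-sided permutation p = 0.2), and the difference between the 2 sets of genes was not tested.

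Sites and peaks in the authors' deposited lists, called reproducible and given per group and so without replicate error, were counted in the same spans. They held 36 sites in 23 genes for treated U87-R, 85 sites in 29 genes for U87-R and 81 sites in 26 genes for U87. Of these, 28 sites were shared between treated and untreated U87-R, 77.8% of the treated list and 32.9% of the U87-R list, while 73 were shared between U87-R and U87 (85.9% and 90.1%). The whole lists held 12791 sites for treated U87-R, 35207 for U87-R and 33396 for U87. Of these 10054 were shared between treated and untreated U87-R (78.6% and 28.6%), and 28016 between U87-R and U87 (79.6% and 83.9%). HNRNPF had 1 site in treated U87-R, 7 in U87-R and 6 in U87. In the same order of groups, HNRNPA0 had 3, 8 and 8, HNRNPR had 0, 5 and 5, and SRSF4 and RBMX had none in treated U87-R. SRSF9, with 3, 0 and 2, and HNRNPC and SRSF7, each with 1, 0 and 0, ran the other way. A 0 in these lists does not mean that no base was called. The highest base of SRSF9, HNRNPC and SRSF7 was called in all 3 U87-R libraries, with mean scores of 47.1, 57.9 and 51.4. The rule by which the authors listed a site is not stated. Peaks numbered 151 in treated U87-R, 236 in U87-R and 245 in U87, of 50034, 96528 and 95629 in the whole lists, and HNRNPF alone had 15, 31 and 29.

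Other splicing genes were read from a list of 60 factors and kinases that are not among the 37. Of them 55 were tested; STM2457 lowered 19 and raised 5, with a median change of -0.12, where 37.8% of all genes were lower and 6.29% higher, with a median of -0.68. PTBP3, a paralogue of PTBP1, had no called base in treated U87-R, against a mean sum of 38.1 ± 14.0 in U87-R (SD; adjusted p = 0.000404). MBNL1, which promotes adult splicing patterns, fell to 62.4 ± 50.0 in treated U87-R (SD, n = 2), against 537 ± 28.7 in U87-R (n = 3), a log2 change of -3.35 ± 0.44 (SE, adjusted p = 0.000488). SRPK2, a kinase of SR proteins, fell to 61.6 ± 2.47, against 257 ± 64.9 in U87-R (-2.01 ± 0.30, adjusted p = 0.000911). RALY, an hnRNP C relative, had 121 ± 0.976 in treated U87-R, against 41.7 ± 23.5 in U87-R (1.67 ± 0.59, adjusted p = 0.048). RBM10 had 369 ± 34.6, against 124 ± 40.5 in U87-R (1.61 ± 0.39, adjusted p = 0.00941), and RBM39 had 356 ± 25.9, against 187 ± 64.0 in U87-R (0.99 ± 0.30, adjusted p = 0.025). METTL3, the target of STM2457, had 147 ± 19.2 in treated U87-R, against 187 ± 66.8 in U87-R, a change of -0.28 ± 0.35 that did not pass (adjusted p = 0.539).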

How the data were processed

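The 37 genes and the lists used here were chosen with earlier results of these data known. Per the labels' protocols, polyA RNA was fragmented, immunoprecipitated with an m6A antibody, crosslinked and sequenced by a commercial provider; the submitters' processing notes name UMI-tools, cutadapt, STAR and hg38, without versions. The caller, like the normalization, was not given in the sources used here.

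For every library the authors deposited the bases they called with a score, which equals the smallest of 4 scores beside it in 100% of bases. The deposited site and peak lists of each group carry a fraction and a score made by the authors in a way the headers do not state; only positions and counts were taken from them. Depth is unknown.

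Genes came from a RefSeq table on GRCh38.p14, with strands from its start windows (33 of the 37) or, for SRSF2, TRA2A, HNRNPA1 and ELAVL1, from textbook knowledge. The start windows are RefSeq's. Of 452349 called bases, 393665 (87.0%) were given to 1 gene. The 37 genes kept every base in their span.

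Because the values are scores and not counts, the test was limma (version 3.58.1, under R 4.3.3) on log2(sum + 1), with trend and with 3 group means over 8 libraries. Genes had to reach a sum of 10 in 2 or more libraries, and p-values were adjusted over them by Benjamini-Hochberg. A gene or base not listed got 0. Single bases were fitted the same way if called in at least 2 libraries of at least 1 group. The model was tested on simulated data. Genes given in full were those called without overlap and 10 listed ones (TRA2A and TRA2B were both), and single bases were the 5 largest called changes per direction and each such gene's highest base. The score near starts and its ratio were added after seeing the data. The labels do not say that replicate numbers pair libraries. Same-numbered libraries of U87-R and U87 had correlated deviations (0.101, 0.316 and 0.108), as did some differently numbered ones (-0.206 to 0.144), so a fit with the number as a block was set beside the main fits and tests, which had none. Alternatives were other pseudocounts, filters, scalings, spans, pairings and leaving out each library.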

Additional observations from a re-analysis of the deposited data

How the results depend on the processing

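Of the calls by summed score after STM2457, those of SRSF4, SRSF8, RBMX, HNRNPA0 and HNRNPF kept their direction and stayed past the threshold in all 15 alternatives run for each. HNRNPR and HNRNPDL turned to 0.17 and 0.090 when libraries were centred on their medians and to 0.30 and 0.22 when scaled to the same total, and PTBP1 to 0.66 when scaled to the same total; the median of all genes moved from -0.68 to -0.12 and -0.01 in these fits. Leaving out each library in turn gave 6 to 10 called genes here by summed score (13 with all libraries), 4 to 8 by number of bases (10), 12 to 16 beyond 50 nt of the start (17), 0 to 2 near starts (2), 5 to 9 for the ratio (9, with the 3 higher ones given without a test) and 124 to 157 single bases (150), over 2988 to 5153 genes in all (4643). A group left with 1 library was assumed to vary like the others. By number of bases, centring gave 4 and scaling 5 calls. Genes that held in all alternatives by summed score were among those lost here. By number of bases, SRSF4 (-0.40 and -0.41) and HNRNPA0 (-0.07 and -0.02) were not called when centred or scaled, nor RBMX when centred (-1.16). The same call of SRSF4 was lost without U87-R replicate 3 (-0.80) or either treated library (-0.95 and -1.15). Beyond 50 nt of the start, HNRNPA0 (-0.09) and HNRNPF (-0.22) were not called when centred. Near starts, centring gave 1 and scaling 15. Between U87-R and U87, leaving out 1 library gave 57 to 190 called genes in all (133), 0 to 2 of these genes near starts and 0 to 5 single bases, and a fit of only these groups gave 87; requiring a base in every library of a group gave 2 single bases. A replicate block gave 68 genes between U87-R and U87 and changed no call of these genes there. For treated against untreated U87-R the libraries share only a number (correlations -0.020 and -0.023), and the block gave 7 calls by summed score, all lower, and 6 by number of bases. Unknown depth and 2 treated libraries limit the precision. The cause of these moves was not tested.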
